A study of Mus musculus with 12 samples.

Results

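The developmental homeobox and Pax genes described here are 45 transcription factor genes of the Pax, Lhx, Dlx, Nkx, Irx, Emx, Otx, En and Gbx families and of the sine oculis family (Six2, Six3 and Six6). Their members were chosen by position: every row of the methylation files that lay in 1 of these genes or within 2 kb either side of it (GENCODE vM21 basic annotation, mm10), with 10 reads or more in at least 9 of the 12 libraries. A row is 1 cytosine of a CpG on 1 strand. The rule found 11859 rows at 7034 CpGs, out of 1697478 rows with that coverage in the whole data set (0.699%). All 45 genes had rows and no row fell in more than 1 window.

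The assay was RRBS, short for reduced representation bisulfite sequencing, in which MspI cuts DNA at CCGG, fragments rich in CpG are sequenced after bisulfite treatment, and the share of reads that keep a C gives the methylation level. Each library came from 1 mouse of 11 months and from a mixture of hippocampus and cortex, so every level is an average over neurons, glia and vessels of both regions. Tg animals were Tg2576 mice, which carry human APP with the Swedish mutation under the hamster prion protein promoter, and Wt animals were wild type. There were 4 Wt libraries (3 labelled female and 1 labelled male) and 8 Tg libraries (4 female and 4 male).

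Total coverage per library ran from 33619981 to 131446104 reads over all rows. The mean level over autosomal rows lay between 5.15% and 6.06%. The library labelled Wt male had a mean X-chromosome level of 19.9%, near the 20.7% to 23.0% of the libraries labelled female, whereas the 4 Tg males had 5.50% to 5.67%. It also had 0.0696 rows on Y per 1000 autosomal rows, against 0.0584 to 0.151 and 0.347 to 0.503. Both values went against its label, and the main genotype and sex counts, with their directions, are also given without it.

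Homeobox and Pax genes encode DNA-binding factors that set the identity of body regions and cell types in the embryo. They are textbook targets of the Polycomb complexes, which keep them silent in cells that do not use them, and their starts lie in long CpG islands that stay largely free of DNA methylation whether the gene is on or off. In the adult forebrain a subset remains in use: Emx1, Emx2 and Lhx2 in cortical cells, Lhx6 and the Dlx genes in interneurons, Otx1 in deep cortical layers, Pax6 in progenitors and astrocytes, and Nkx2-2 and Nkx6-2 in oligodendrocytes. These files hold no expression, so the members were sorted by that textbook knowledge into 12 forebrain-expressed genes, 9 genes of the basal forebrain, diencephalon and eye, and 24 genes called silent, of which 15 act in the midbrain, hindbrain or spinal cord and 9 mainly outside the brain.

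The sequences below show the 3 states met at these genes: a promoter at near 0, an intron at an intermediate level and an intron close to full methylation. All are GRCm38.p6 (mm10), CpGs are in capitals, and promoters are the 250 bases before the RefSeq start, read in the direction of the gene. The other stretches are read on the plus strand from the first to the last measured row.
Nkx6-2 promoter, chr7:139582798-139583047, minus strand: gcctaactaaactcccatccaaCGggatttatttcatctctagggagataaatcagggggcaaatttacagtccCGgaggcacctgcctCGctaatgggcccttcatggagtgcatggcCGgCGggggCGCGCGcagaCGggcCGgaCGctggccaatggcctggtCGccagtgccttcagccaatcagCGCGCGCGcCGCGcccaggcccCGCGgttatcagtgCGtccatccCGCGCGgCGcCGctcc
Lhx4 promoter, chr1:155742028-155742277, minus strand: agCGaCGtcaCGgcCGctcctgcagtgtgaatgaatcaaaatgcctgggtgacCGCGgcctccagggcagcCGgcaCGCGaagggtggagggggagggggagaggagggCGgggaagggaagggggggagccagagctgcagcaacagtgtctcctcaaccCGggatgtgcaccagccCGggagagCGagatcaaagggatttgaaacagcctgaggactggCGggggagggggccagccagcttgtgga
Pax6 intron, chr2:105678016-105678134: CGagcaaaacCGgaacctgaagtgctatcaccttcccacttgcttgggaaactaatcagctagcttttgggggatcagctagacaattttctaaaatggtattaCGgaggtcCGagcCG
Otx1 intron, chr11:21999866-21999985: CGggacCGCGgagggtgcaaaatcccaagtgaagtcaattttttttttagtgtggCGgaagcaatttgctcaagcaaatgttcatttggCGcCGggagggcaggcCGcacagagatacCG
Lhx4 intron, chr1:155717432-155717676: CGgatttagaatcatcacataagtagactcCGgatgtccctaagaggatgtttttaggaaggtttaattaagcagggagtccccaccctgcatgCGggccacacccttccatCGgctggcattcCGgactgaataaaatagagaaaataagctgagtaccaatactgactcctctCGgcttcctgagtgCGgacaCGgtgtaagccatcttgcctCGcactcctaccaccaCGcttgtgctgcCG
Pax3 intron, chr1:78132121-78132216: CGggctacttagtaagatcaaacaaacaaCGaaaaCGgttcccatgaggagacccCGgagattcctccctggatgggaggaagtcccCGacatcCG

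The Nkx6-2 promoter holds 26 CpGs and its 38 measured rows averaged 1.52%, with no row above 3.44%. Nkx6-2 is a factor of oligodendrocytes and belongs to the forebrain-expressed members. The Lhx4 promoter holds 14 CpGs and its 18 rows averaged 0.856%. Lhx4, a LIM-homeobox factor of motor neurons and the pituitary, belongs to the silent members, so in both classes the start shown is almost free of methylation. The Pax6 stretch averaged 27.6% over 8 rows and the Otx1 stretch 27.3% over 12 rows. The Lhx4 intron stretch, which begins 24351 bp from the nearest start, averaged 90.1% over 20 rows, none below 81.6%. The Pax3 intron stretch averaged 82.3% over 10 rows. The 4 intron stretches were picked after their values were seen, as the highest 1 kb bin of the gene body with at least 5 rows and a span of 300 bases or less.

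RefSeq promoter sequences (250 bases before to 50 after a start, GRCm38.p6) could be matched for 34 of the 45 genes, 44 promoters in all. Their median CpG count was 17, against 14 over 20061 promoters of protein-coding genes. The median ratio of observed to chance-level CpG was 0.746, against 0.591. The MspI site CCGG occurred in 36 of the 44 (81.8%), against 64.0% of all, which bears on how many of these starts RRBS can reach. The homeodomain core TAATTA, which reads the same on both strands, occurred in 3 of the 44 (6.82%), against 4.39% of all.

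Members had low promoters like most genes, and low gene bodies unlike most genes. Promoter rows were those within 1000 bp of any annotated start. The level of a gene is the mean over its rows of the level pooled over libraries. The median promoter level over the 44 members with promoter rows was 1.97%, and 39 of the 44 lay under 5%. Over 14767 protein-coding genes the median was 1.0%, with 81.4% under 5%. Pax5, a B-cell and midbrain-hindbrain factor, had no promoter row at this coverage.

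Gene body rows were those in the gene and more than 1000 bp from any of its starts. The median body level over the 44 members with at least 5 such rows was 5.79%, against 56.9% over 9525 protein-coding genes. Only 11 of the 44 members exceeded 10%, whereas 87.7% of all protein-coding genes did. The 74 measured genes of a list of other developmental transcription factors had a median of 4.68%. Genes for subunits of the Polycomb complexes themselves, which most cells express, had a median of 42.1% over 14 genes, and housekeeping genes 38.0% over 10. Low bodies were thus shared with the other developmental factors and are not particular to the homeobox and Pax genes. With bodies taken beyond 2000 bp of a start the medians were 9.42% for members and 61.97% for all genes. With rows covered in every library they were 4.29% and 20.7%, so the size of the gap depended on which rows were read. RRBS covers the CpG-rich parts of a gene, and how far the choice of rows sets this gap was not tested.

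Within members, rows were mostly near 0. Of 5191 promoter rows, 91.9% lay under 5%, and 1 row exceeded 50%. Of 5551 body rows, 67.9% lay under 5%, 14% between 10% and 50%, and 3.08% above 50%. Introns averaged 8.98% over 3093 rows, coding exons 5.69% over 1857 rows and UTR rows 7.49% over 363 rows.

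**Figure D1:**
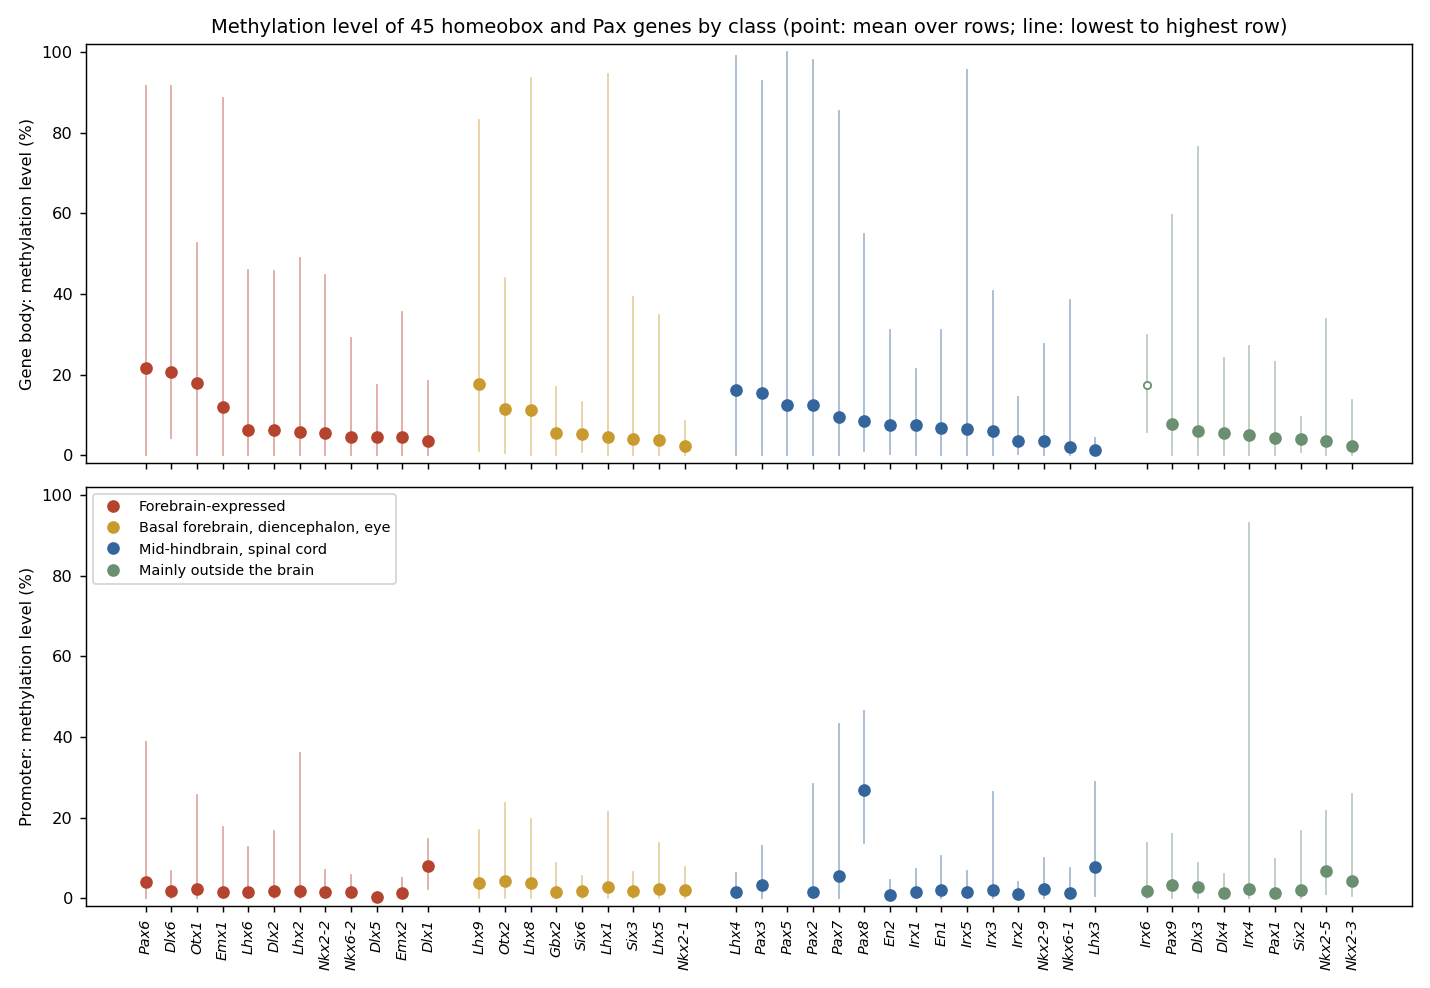
Methylation level (%) of each member in its gene body (top) and promoter (bottom), grouped by class; points are means over rows of the level pooled over 12 libraries, lines run from the lowest to the highest row, and the open point is a gene with under 5 rows. Promoter points lie low except Pax8 at 26.9%, while body lines reach 100% in Pax5, 91.6% in Pax6 and 76.4% in Dlx3.

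The contrast of forebrain-expressed with silent members gave close medians. The median body level was 5.91% for the 12 forebrain-expressed members and 6.07% for the 23 silent members with at least 5 body rows. The difference was -0.162 percentage points, with an SD over the 12 libraries of 0.822 points and a range from -0.577 to 2.33. Forebrain-expressed members were higher in 8 of 12 libraries. Since libraries are repeat measurements of the same genes and the genes were sorted by hand, no p-value was computed. The median promoter level was 1.68% for forebrain-expressed and 2.11% for silent members, a difference of -0.428 points with an SD of 0.328 points over libraries. Forebrain-expressed promoters were lower in 10 of 12 libraries. The sign of the body difference depended on the rows used, and the values are given under the dependence on processing.

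The classes differed more in how body levels were distributed over rows. Of 1313 forebrain-expressed body rows, 296 (22.5%) lay between 10% and 50%, against 387 of 3234 silent rows (12%). Above 50% the order turned, with 8 forebrain-expressed rows (0.609%) and 146 silent rows (4.51%). Both shares rest on few genes. Dlx6, Otx1 and Pax6 held 128 of the 296 intermediate rows, and without them the forebrain-expressed share was 14.8%. Without En2, En1 and Irx1, its 3 genes of highest share, the silent value was 10.4%. Pax5, Lhx4 and Pax2 held 109 of the 146 highly methylated silent rows. The median share of intermediate rows per gene was 15.4% for forebrain-expressed and 11.4% for silent members. The 9 genes of the basal forebrain, diencephalon and eye had 9.46% intermediate rows and 17 rows above 50%, of which Lhx8 held 12. Lhx8 is a factor of basal forebrain cholinergic neurons.

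Distance from a start moved with both shares. Between 1000 and 2000 bp from the nearest start, 20.8% of 557 forebrain-expressed rows and 6.18% of 728 silent rows lay between 10% and 50%. Between 4000 and 8000 bp the shares were 22.9% of 279 and 11.5% of 721. Of the 146 silent rows above 50%, 142 lay beyond 16000 bp, where they made up 28.0% of 508 rows. Forebrain-expressed members had 11 rows there, 54.5% of them above 50%, too few to compare. The share above 50% thus cannot be told apart from where the rows of each class lie. Among stretches of 1 kb with at least 5 rows, 12 of 310 averaged over 50%. They lay in 5 silent genes and in Lhx8, and none lay in a forebrain-expressed member.

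**Figure D2:**
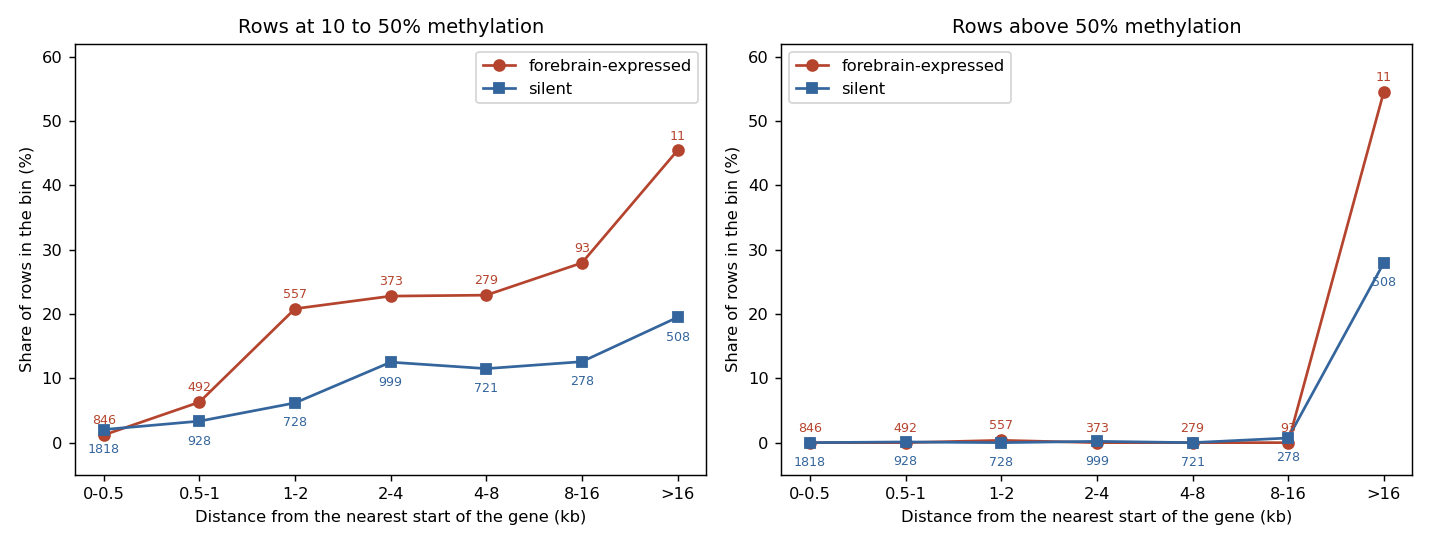
Share of rows (%) at 10 to 50% methylation (left) and above 50% (right) by distance from the nearest start of the gene (kb), for forebrain-expressed and silent members; small numbers are rows per bin. The intermediate share is 20.8% against 6.18% at 1 to 2 kb, and the last forebrain-expressed bin holds 11 rows.

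The highest forebrain-expressed bodies were Pax6, Dlx6 and Otx1. Pax6 (chr2:105668900-105697364, plus strand), a paired-box factor of eye and cortex development, had a body level of 21.6% over 90 rows, 63 of them between 10% and 50%. Over the 53 body rows covered in all libraries, Pax6 read 15.96%, 19.9%, 19.7% and 12.6% in the 4 Wt libraries, the last in the library labelled male, and 13.6% to 21.6% in Tg, with a median of 16.8%. The means were 17.1% ± 3.47 (SD, n = 4) in Wt and 17.4% ± 2.87 (n = 8) in Tg, so the groups overlapped.

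Pax6 has several starts, and its promoter rows averaged 4.02%. Levels of stretches by animal are methylated reads over all reads, and the Pax6 intron stretch printed above read 21.8%, 31.8%, 36.6% and 27.5% in Wt and 12.5% to 40.9% in Tg, with a Tg median of 20.5%. Its spread over animals was wide, with means of 29.4% ± 6.29 (n = 4) and 22.5% ± 9.21 (n = 8). All 12 animals lay at 12.5% or above and none above 40.9%, so the intermediate level was present within each mouse.

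Dlx6 (chr6:6863334-6868568, plus strand), a distal-less factor of interneurons, had 20.7% over 33 body rows, of which 25 also lie in the promoter of the antisense RNA gene Dlx6os2. Over 17 rows its body read 20.01%, 32.3%, 25% and 12.9% in Wt and 14.3% to 28.5% in Tg, with a Tg median of 18.6%. Its promoter averaged 1.90%. Otx1 (chr11:21994764-22002897, minus strand), an orthodenticle factor of deep cortical layers, had 17.9% over 54 rows. Over 34 rows it read 25.99%, 18.1%, 19.2% and 21.2% in Wt and 13.5% to 25.2% in Tg (median 23.1%), with means of 21.1% ± 3.48 (n = 4) and 21.9% ± 3.86 (n = 8). The Otx1 stretch printed above read between 16.9% and 34.6% over the 12 libraries. Dlx6, Otx1 and Pax6 each had intermediate levels in all 12 libraries.

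The lowest forebrain-expressed bodies were Dlx1 at 3.40% over 91 rows and Emx2 at 4.45% over 107 rows. The 91 Dlx1 rows include 36 in the 250 bases before its RefSeq start, since the GENCODE start lies earlier. The mean of those 36 rows, given below with the Dlx1 promoter, was lower than that of the body. The rank of Dlx1 may therefore rest on the start used, which was not tested. Dlx1, a distal-less factor of interneurons, read 2.82%, 3.92%, 2.54% and 2.13% in Wt and 0.883% to 2.82% in Tg (median 1.82%) over 46 rows. Emx2, a factor of cortical patterning, read 4.79%, 2.74%, 3.98% and 2.75% in Wt and 2.55% to 5.05% in Tg (median 4.55%) over 79 rows. Wt and Tg overlapped at both genes. Of the rest, Emx1 averaged 11.96% over 53 rows, but its median row was at 1.71%. Over the 34 Emx1 body rows covered in all libraries, Tg read 0.564% to 4.55% (median 2.28%). The other 6 forebrain-expressed bodies lay between 4.48% (Dlx5) and 6.25% (Lhx6).

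The highest silent bodies were Lhx4 at 16.2% over 201 rows, Pax3 at 15.3% over 97 rows and Pax5 at 12.5% over 525 rows. Pax3 is a factor of neural crest and muscle precursors. In these genes a low 5′ part was joined to distal introns near full methylation. The Lhx4 stretch read 95.6%, 88.2%, 89.8% and 88.8% in Wt and 83.3% to 92.6% in Tg (median 89.4%). The Pax3 stretch, which begins 64622 bp from the nearest start, read 81.3%, 79.6%, 89.8% and 75.1% in Wt and 75.4% to 87.5% in Tg (median 83.0%). In Pax5, 6 rows at chr4:44616767-44616837 averaged 87.8%. In Pax2, a factor of kidney, eye and midbrain-hindbrain, 6 rows at chr19:44783640-44783761 averaged 89.5%, and these also lie in the promoter of Gm20395. The genotypes overlapped at each of these stretches.

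These genes read far lower over rows that every library covered. Over rows covered in all libraries the body of Lhx4 read 3.50% to 5.08% (98 rows), Pax3 5.38% to 7.31% (85 rows) and Pax5 3.69% to 4.82% (354 rows). Their rank among members therefore depends on whether every library is required.

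The lowest silent bodies were Lhx3 and Nkx6-1, both factors of motor neuron specification. Lhx3 averaged 1.39%, with no row above 4.34%, and read 0.809%, 1.53%, 1.89% and 1.78% in Wt and 1.04% to 1.93% in Tg (median 1.76%). Nkx6-1 averaged 2.14% over 81 rows. Its libraries ran from 0.928% to 2.52%, the Wt mean being 1.93% ± 0.507 (n = 4) and the Tg mean 1.63% ± 0.412 (n = 8). The other silent bodies lay between 2.37% (Nkx2-3, a gut and spleen factor) and 12.4% (Pax2). Irx6 had 4 body rows and was left out of body counts.

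Promoter levels stood out in Pax8, Dlx1 and Lhx3. Pax8, a factor of thyroid and kidney, averaged 26.9% over 6 promoter rows, of which 3 were covered in all libraries. Over those 3 it read 32.1%, 27.0%, 27.1% and 22.2% in Wt and 7.41% to 39.1% in Tg, with a Tg median of 25.96%. The Tg values were spread over a range wider than that of Wt, and 3 rows give a coarse measure. Dlx1 averaged 8.04% over 14 rows, all also in the promoter of Dlx1as. Its GENCODE start lies before the RefSeq start, and the 36 rows in the 250 bases before the RefSeq start averaged 1.5%. These 36 rows were counted as body. Lhx3 averaged 7.64% over 41 rows that also lie in the promoter of Gm27196. The lowest promoter was that of Dlx5, at 0.427%.

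The genotype question was whether Tg2576 brains differed from Wt at these genes. Over the 7618 member rows covered in every library, the mean level was 3.86%, 3.81%, 3.59% and 3.13% in the 4 Wt animals, the last being the library labelled male, and 3.46% to 3.81% in Tg. The means were 3.60% ± 0.331 (n = 4) and 3.66% ± 0.114 (n = 8), a difference of 0.0624 points. Over all autosomal rows the difference was 0.0719 points. Without the library labelled Wt male, the member difference was -0.0934 points. That library was also the lowest of all 12 over all autosomal rows, at 5.15%, and the difference without it was not computed there. The library labelled Wt male was the lowest of all 12 at promoter, body and flank rows, and the genotypes overlapped in each.

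By part, the Tg minus Wt difference was -0.0070 points at promoter rows, 0.0873 at body rows and 0.305 at flank rows. At flank rows Wt had 5.53% ± 0.762 (n = 4) and Tg 5.84% ± 0.364 (n = 8). Body rows of forebrain-expressed members had 6.69% ± 0.880 in Wt and 6.82% ± 0.538 in Tg. Body rows of silent members had 4.33% ± 0.441 and 4.34% ± 0.284.

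**Figure D3:**
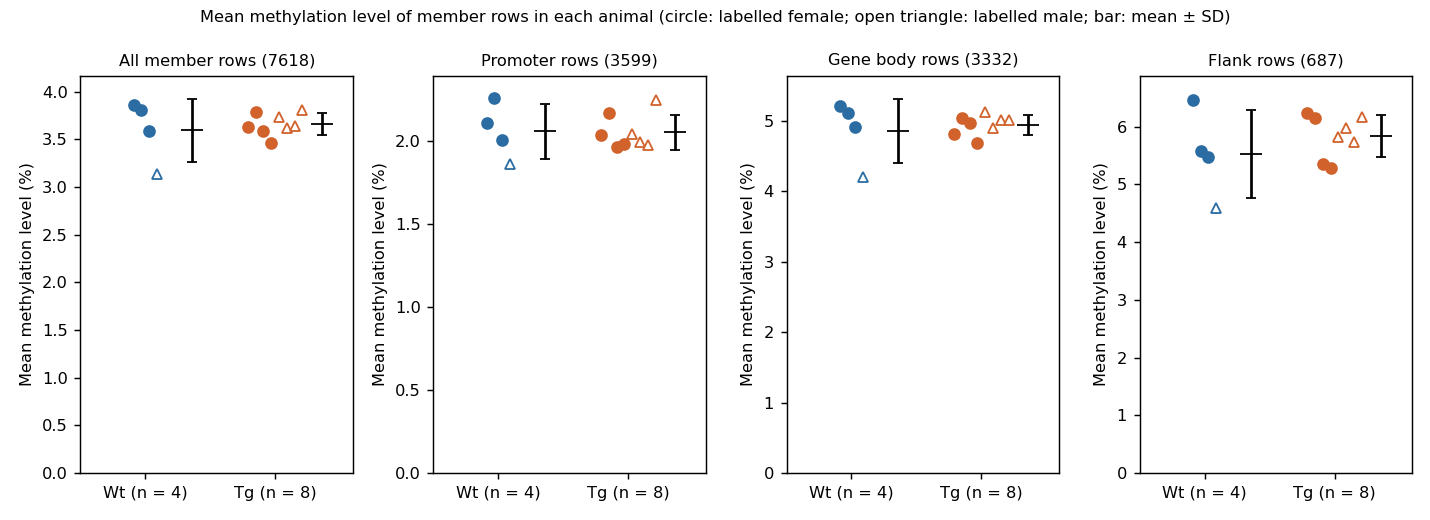
Mean methylation level (%) over member rows covered in all 12 libraries, by animal and genotype; bars give mean ± SD for 4 Wt and 8 Tg. Wt and Tg overlap in all 4 panels, and the open Wt triangle, the library labelled male, is the lowest point at 3.13% over all member rows.

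Single rows were tested with a binomial logistic regression on methylated and unmethylated reads, with sex as a covariate, over all 1680056 rows with at least 3 Wt libraries. A differentially methylated site (DMS) had a Benjamini-Hochberg adjusted p under 0.1 and a difference of at least 10 points. Genome-wide, with chromosome X included, 4.32% of rows met this. Of 11829 member rows tested, 248 (2.10%) did, 142 higher and 106 lower in Tg. Without the library labelled Wt male the balance turned, with 268 DMSs of which 116 were higher and 152 lower. Over all rows it also turned, from 39577 higher and 33065 lower to 30847 and 32508. The member share was below the background, as was that of other developmental factors (1.83%) and of Polycomb subunit genes (1.92%). Of member rows, 21.6% had a level between 5% and 95%, against 24.6% of all rows.

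The binomial model treats reads as independent, whereas animals are the replicates. With a dispersion estimated for each row, the share called was 0% of all rows and 0 of the 11829 member rows, with a smallest adjusted p of 0.510. At an unadjusted p under 0.05 the same model had 1151 member rows (9.73%), against 9.46% of all rows. The limma test on logit levels called 0 of the 7618 member rows covered in all libraries. A count of 0 does not show that no row differed.

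By class, DMSs were 93 of 3100 forebrain-expressed rows (3.0%, 62 higher and 31 lower), 113 of 4658 rows of mid-hindbrain and spinal cord genes (2.43%), 28 of 2322 rows of basal forebrain, diencephalon and eye genes (1.21%) and 14 of 1749 rows of genes mainly outside the brain (0.800%). All these shares lay under the 4.32% of all rows. The classes had the same order in the share of rows with levels between 5% and 95%. That share was 27.8%, 20.9%, 18.0% and 17.1% in the order given. Without the library labelled Wt male the forebrain-expressed split was 53 higher and 50 lower. By part, DMSs were 26 of 5180 promoter rows (0.502%), 179 of 5532 body rows (3.24%) and 43 of 1117 flank rows (3.85%). The parts had the same order in the share of rows with levels between 5% and 95%, which was 7.76% at promoter, 31.6% at body and 36.3% at flank rows.

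DMSs fell in 40 of the 45 genes. Pax5, which had the most rows tested, also had most DMSs, 30 of 556 rows (5.40%, against 4.32% of all rows), 20 of them higher. Otx1 had 27 of 455 (5.93%), 13 higher and 14 lower. Lhx2, a LIM-homeobox factor of cortical identity, had 17 of 453 (3.75%), 16 of them higher. Pax7, a factor of dorsal midbrain and muscle stem cells, had 14 of 443 (3.16%) and Pax6 13 of 309 (4.21%), 11 of them higher. By share Pax8 was highest, with 4 of 37 rows (10.8%). All 7 DMSs of Dlx6, all 7 of Lhx5 and all 5 of Emx2 were higher in Tg. These directions depended on the library labelled Wt male. Without it Dlx6 had 3 higher and 2 lower, Lhx5 6 and 3, Emx2 1 and 1, Pax5 10 and 10, and Pax6 12 and 9. Lhx2 had 14 higher and 4 lower. The 2 strands of a CpG are copies of the same mark, and the opposite row was tested for 173 of the 248 DMSs: 87 moved the same way and 7 did so by at least 10 points.

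Wt and Tg ranges did not overlap at 35 of the 11829 member rows, and at 0.23% of all rows. They were apart at 15 of the 248 DMSs. The 8 below are those with the smallest p in the overdispersion model, at most 1 within 1000 bp. All 8 had a binomial adjusted p under 0.1 and an overdispersion adjusted p of 0.510, and all rest on 10 to 63 reads per library. A library with 0 methylated of 12 reads allows a level of up to 25%. Intervals cover counting error only, since PCR copies are not independent molecules.

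Sequence is shown for the measured start of the Lhx2 fragment and for 4 other rows that were higher in Tg, since CpGs of 1 MspI fragment are read together. The measured CpG of each row, or every CpG of the Lhx2 stretch, is in capitals and the strand printed is plus (GRCm38.p6).
Lhx2 fragment, chr2:38354850-38354992: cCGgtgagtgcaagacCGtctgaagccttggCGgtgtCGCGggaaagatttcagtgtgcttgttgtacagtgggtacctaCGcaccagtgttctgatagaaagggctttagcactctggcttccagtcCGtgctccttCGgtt
Lhx8, chr3:154329838-154329879: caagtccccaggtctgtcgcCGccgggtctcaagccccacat
Pax7, chr4:139834011-139834052: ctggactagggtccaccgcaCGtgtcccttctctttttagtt
Pax9, chr12:56691310-56691351: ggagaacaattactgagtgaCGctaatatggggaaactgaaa
Pax5, chr4:44598211-44598252: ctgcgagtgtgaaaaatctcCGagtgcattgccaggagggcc

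In Lhx2, the plus-strand row at position 38354866 on chromosome 2 lay in an intron, 4107 bp from the start. It read 3.85%, 0% and 0% in the 3 Wt libraries that covered it and 15.4% to 46.2% in 6 Tg libraries, with a Tg median of 25.9%. Pooled, 1 of 70 Wt reads (1.43%, exact 95% interval 0.0362 to 7.70) and 32 of 111 Tg reads (28.8%, 20.6 to 38.2) were methylated. The difference was 27.4 points (binomial adjusted p = 2.48e-05). No Tg library reached down to the Wt range, and the CpG stayed a DMS with its strands summed, at 18.2 points.

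The Lhx2 row lay among other DMSs. The MspI fragment at chr2:38354850-38355097 held 10 tested rows, 9 on the plus strand, and 7 of them were DMSs, all higher in Tg. Differences ran from 14.3 points at position 38354887 to 31.6 points at 38354930. These rows share reads and are not independent, and the minus strand was tested at 1 CpG of the fragment only. At each of the 7 rows 1 Wt library had no coverage, and at 5 of them 2 Tg libraries had none. Wt and Tg ranges were apart at 3 of the 7. Of the 7, none passed the overdispersion model, with adjusted p from 0.510 to 0.603. Over the 9 rows of the stretch printed above, reads pooled, Wt had 4.13%, 5%, 0.709% and 1.19%, and Tg ran from 0% (Tg male 1, 56 reads) to 37.8% (Tg female 1). Libraries were pooled over unlike rows there, since only the minus-strand row at 38354852 was covered in all 12. The pooled values of the genotypes overlapped, with 2.76% ± 2.13 (n = 4) and 14.2% ± 11.1 (n = 8). They do not compare the same sites across animals. The upstream exon rows between 38354737 and 38354825 differed by at most 4.6 points.

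The Lhx8 row at 154329859 on chromosome 3 lay in an intron, 200 bp downstream of the nearer of 2 annotated starts, on the minus strand. Wt read 0%, 0%, 6.67% and 0%, and Tg 8.82% to 38.6% with a median of 31.6% in 7 libraries. The difference was 24.3 points (binomial adjusted p = 7.29e-05). On the opposite strand of the same CpG the difference was -5.35 points.

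The Pax7 row at 139834032 on chromosome 4 lay 504 bp before the start, outside the gene. Wt read 0%, 0%, 0% and 3.39%, and Tg 8.16% to 38.1% with a median of 13.3% in 7 libraries. The fragment held 5 tested rows, all on 1 strand and all higher in Tg, of which 3 were DMSs. The Pax9 row at 56691331 on chromosome 12 lay 436 bp before the start of Pax9, a factor of pharyngeal pouches and teeth. Wt read 5%, 0% and 0%, and Tg 7.69% to 33.3% (median 16.7%) in 8 libraries. The opposite strand differed by -1.29 points, so the difference at Pax9 stood on 1 strand.

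The Pax5 row at 44598231 on chromosome 4 had the widest difference of the 8, 39.9 points. It lay in an intron 112177 bp from the start. Wt read 28.6%, 30.8% and 9.76%, the last in the library labelled male, and Tg 38.5% to 83.3% with a median of 56.7% in 6 libraries. Without the library labelled Wt male the difference was 27.9 points and the row was no longer a DMS, whereas the other 7 rows remained DMSs.

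A pair of rows were lower in Tg. A Pax7 intron row at 139757157 read 14.8%, 12.7% and 9.09% in Wt, and 0% in 5 of 6 Tg libraries with 2.22% in the other, a difference of -11.9 points against 5.37 on the opposite strand. An Otx1 flank row at 21993253 on chromosome 11 read 15.4%, 11.8%, 16.7% and 14.8% in Wt, and 0% in 6 of 7 Tg libraries with 8.70% in the other, a difference of -13.9 points against 1.58 on the opposite strand. The Otx1 fragment held 41 tested rows with 8 DMSs, 2 of them higher in Tg, so directions were mixed there. At a Dlx2 UTR row at 71544161 on chromosome 2, 0 of 78 Wt reads were methylated, which allows up to 3.85%, and Tg read 4.76% to 30% in 6 libraries, against -0.980 points on the opposite strand. For Lhx8, Pax9, Dlx2, Otx1 and this Pax7 row, the CpG was no longer a DMS once its strands were summed.

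**Figure D4:**
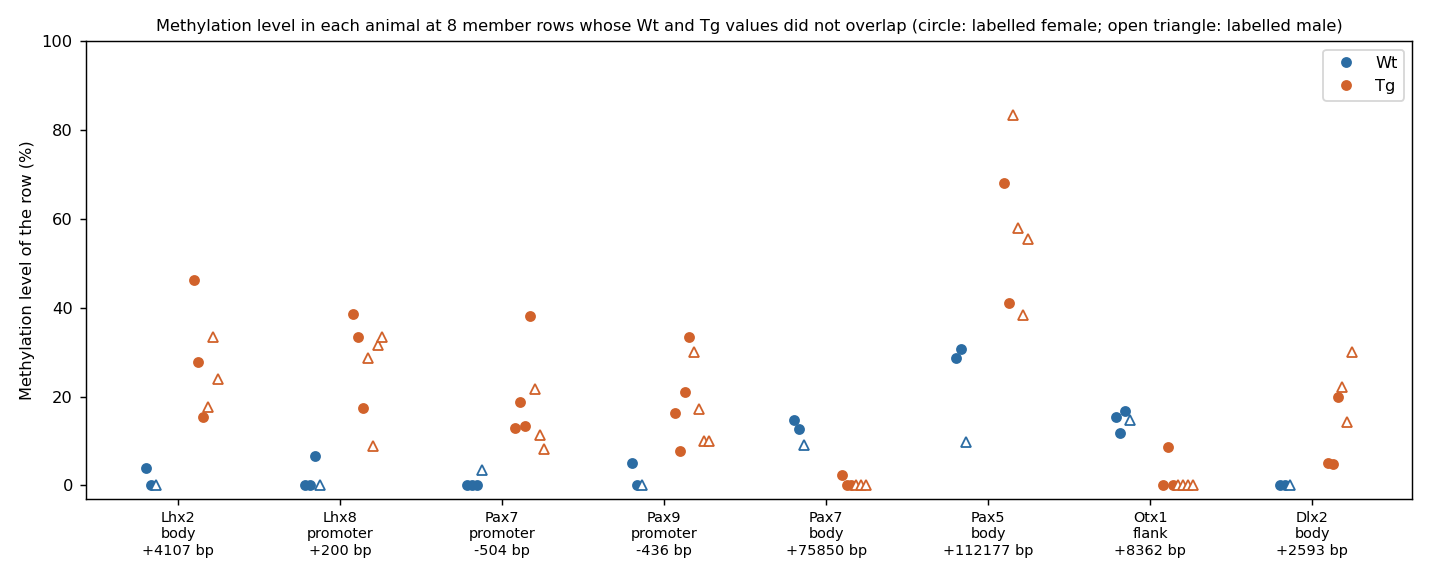
Methylation level (%) in each animal that covered the row, for the 8 member rows described in the text, with distance from the nearest start in bp; circles are libraries labelled female and open triangles labelled male. Wt and Tg do not overlap at any of the 8, which is how they were chosen, and the widest difference is 39.9 points at Pax5.

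Summed over a promoter or a whole gene, no member passed the threshold for genotype by either model. Except at Pax8 (27.8% and 13.9%), Wt levels lay under 10% at each member promoter and window. A loss of 10 points could therefore not be called there. By the binomial model some members had an adjusted p under 0.1 with a smaller difference, such as the Lhx4 promoter (adjusted p = 3.25e-06, 0.400 points). By the overdispersion model no member had an adjusted p under 0.1. Of 16480 gene promoters tested, 0.916% met the same threshold by the binomial model and 0% by the overdispersion model. Of the 44 member promoters, 0 did by either, with 19 at an unadjusted binomial p under 0.05 and 0 at an unadjusted overdispersion p under 0.05. Over all promoters 49.5% and 6.01% had such a p, so the member counts did not exceed the background. The read-weighted differences ran from -1.69 points at Dlx1 to 1.42 at Nkx2-3, and 42 of the 44 lay within 1 point. Of the 44, 28 were higher and 16 lower in Tg. Without the library labelled Wt male, 23 were higher and 21 lower, against 8440 and 8038 of all promoters. Irx4, a heart factor, had the smallest overdispersion p among members (adjusted p = 0.866).

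Of 19931 gene windows (the gene and 2 kb either side), 1.33% met the threshold by the binomial model and 0% by the overdispersion model. Of the 45 member windows, 0 did by either, with 26 (57.8%) and 1 (2.22%) at an unadjusted p under 0.05, against 51.5% and 5.92% of all windows. The median difference was 0.123 points, against 0.0600 over all windows, and 31 of the 45 were higher in Tg. Without the library labelled Wt male, 30 were higher, as were 10705 of the 19931 windows of all genes. The member median was then 0.0681 points, against 0.0419 over all windows. With all 12 libraries, all but 1 of the member windows lay within 1 point. The exception was Pax8, at -4.90 points (read-weighted) over 9 rows, with 14% ± 6.09 in Wt (n = 4) and 8.31% ± 4.70 in Tg (n = 8) and an overdispersion adjusted p of 0.896. The kidney progenitor gene Six2 had the smallest overdispersion p (adjusted p = 0.781), with 2.65% ± 0.279 in Wt and 2.43% ± 0.290 in Tg. Wt and Tg ranges overlapped in all 45 windows.

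**Figure D5:**
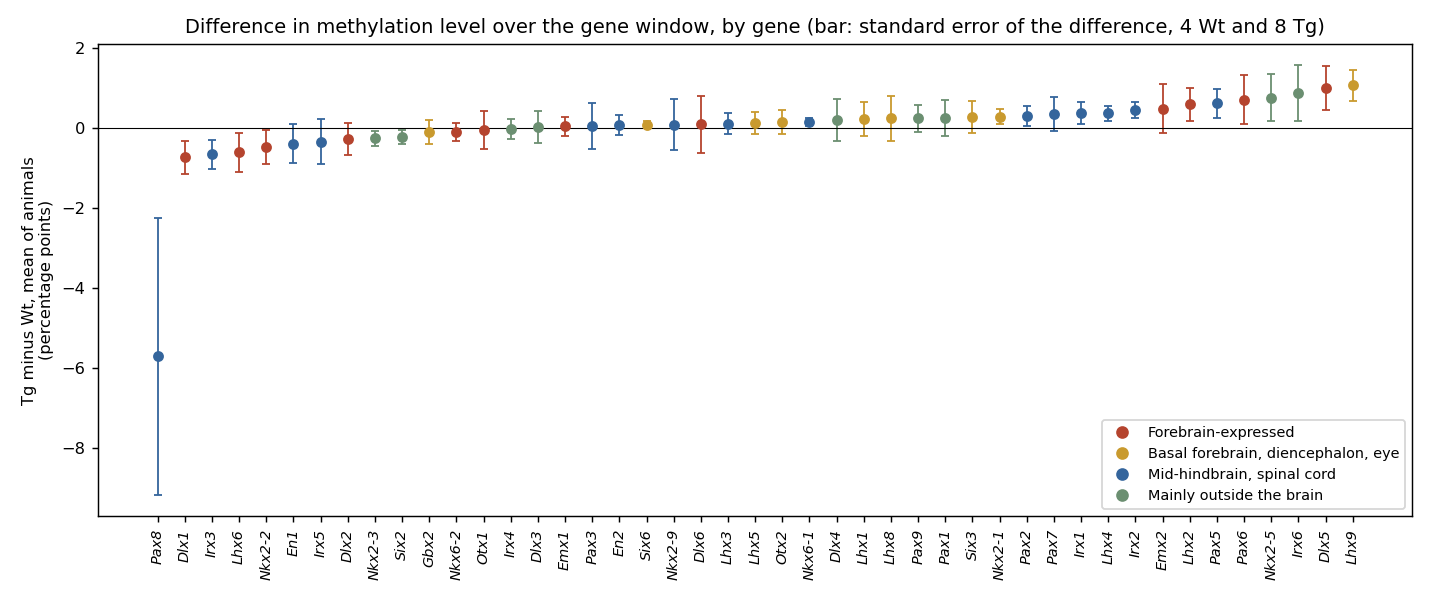
Tg minus Wt difference of mean levels over the gene window (percentage points) for the 45 members, coloured by class; bars are the standard error of the difference over 4 Wt and 8 Tg animals. Points are differences of animal means, and Pax8, with 9 rows, lies at -5.71 while the highest, Lhx9, lies at 1.07.

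The sex term of the same fits, which served as a covariate, called 5.07% of all rows by the binomial model and 0% by the overdispersion model. All rows include chromosome X, whereas every member lies on an autosome. At member rows it called 233 of 11829 (1.97%) and 0, the latter with 1184 rows (10.01%) at an unadjusted p under 0.05, against 10.1% of all rows. Of the 233, 107 were higher in males and 126 lower, against 26822 and 58330 over all rows. Without the library labelled Wt male the binomial count was 240 of 11842 (2.03%, against 4.78% of all rows). Of these 137 were higher and 103 lower, against 28751 and 52774 over all rows. Among Tg animals, the mean over member rows was 3.62% ± 0.132 in 4 females and 3.70% ± 0.0877 in 4 males. Sexes could not be compared within Wt, where 1 library was labelled male.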

How the data were processed

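Genomic DNA from 12 mice (4 Wt and 8 Tg) was analysed by RRBS. Per the labels and the study's methods, reads were aligned to mm10 with Bismark, and the authors deposited 1 methylKit table per library with the read counts (coverage, C and T) of each cytosine, already limited to 10 reads or more. A total of 11 duplicated positions were dropped. Of the rows, 99.9% were CpGs in GRCm38.p6. Rows were kept with 10 reads in 9 libraries and assigned to GENCODE vM21 basic genes. PCR copies cannot be told apart in these tables, so counts may hold repeats of a molecule. Site tests were logistic regressions with genotype and sex (likelihood ratio, or F with a Pearson dispersion of at least 1), Benjamini-Hochberg adjusted over all rows. On counts simulated with spread between animals, the overdispersion model called 0 of 200 rows shifted by 30 points and 174 of 200 shifted by 60. The binomial model called 191 and 200 of them, along with 369 and 414 unshifted rows. The simulation held 20000 rows, with a spread set by choice, and shifted rows upward from an intermediate level. It does not give the power at member rows, most of which lay near 0. Promoter and window tests used summed counts of rows covered in all 12 libraries, for genes with 3 rows or more. Python 3.11.15, NumPy 2.4.6, SciPy 1.17.1, pandas 2.3.3, R 4.3.3 and limma 3.58.1 were used. Binomial p-values measure read sampling only, and overdispersion and limma p-values the spread between animals. Replicate numbers followed the record order. Highest agreement between 2 libraries was 4.06% of rows with equal counts. The members, classes and other lists were chosen with earlier results of these data known. Named genes were the 3 highest and 2 lowest bodies of the forebrain-expressed and of the silent members, the 3 highest promoters, and up to 8 DMSs whose Wt and Tg ranges were apart (smallest overdispersion p, 1 within 1000 bp); other genes named were chosen after their values were seen. Alternatives changed the read minimum, rows, covariate, libraries, threshold, strands, promoter width, class and summary, and left out each animal.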

Additional observations from a re-analysis of the deposited data

Results flagged for a closer look

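Values of 35 quantities were screened for 1 animal far from the rest of its genotype by Dixon's criterion, which chance meets in about 1 of 20 groups, and 8 of 64 groups met it. The Pax5 body level of Wt female 1 was 4.82%, while the other 3 Wt libraries had 3.69% to 3.78%. The Lhx3 body level of Tg female 1 was 1.04%, with the other Tg libraries at 1.55% to 1.93%. At the Lhx8 intron stretch at chr3:154324695-154324766, Wt female 1 had 72.3% against 87.8% to 90% in the other Wt libraries, and Tg female 3 had 66.2% against 84.9% to 100% in the other Tg libraries. The Lhx8 row at 154329859 was 6.67% in Wt female 3 and 0% in the other Wt libraries. The Pax7 row at 139834032 was 3.39% in the library labelled Wt male and 0% in the other Wt libraries. The Pax7 row at 139757157 was 2.22% in Tg female 1 and the Otx1 row at 21993253 was 8.70% in Tg female 2, each with 0% in the other Tg libraries covered. At the last 4 rows all other covered animals of the same genotype were at 0, so any methylated read in 1 animal meets the criterion.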

How the results depend on the processing

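The 248 member DMSs of the binomial model (2.10%, against 4.32% of all rows) became 124 of 9028 with 20 reads per row (1.37%, against 1.83%). Rows covered in all 12 libraries gave 71 of 7618 (0.932%, against 1.72%), and the libraries labelled female 430 of 11672 (3.68%, against 5.37%). A difference of at least 25 points left 10 (0.0845%, against 0.455%). With strands summed there were 109 of 7018 CpGs (1.55%, against 5.02%). The limma test on logit levels called 0 members and 0 of all rows. Leaving out each animal gave 247 to 354 (2.09% to 2.99%, against 3.71% to 5.40% of all rows). Without the library labelled Wt male more were lower (152) than higher (116) in Tg. The overdispersion model called 0 member rows under each of these. Promoter and window tests called 0 members under every alternative, with the limit given above for members under 10% in Wt. The sex count of 233 became 117 with 20 reads (1.30%, against 2.28% of all rows). Without each animal it was 214 to 280 (1.81% to 2.37%, against 4.26% to 5.90% of all rows). The body difference between forebrain-expressed and silent members ranged over both signs: it was 1.19 points with silent genes mainly outside the brain only, 0.743 with 20 reads, 0.680 without rows in promoters of other genes, 2.53 as a difference of means and -2.91 for bodies beyond 2000 bp, and -0.536 to 0.0391 without each animal. The promoter difference was -0.0570 with 20 reads, -1.39 as a difference of means and -0.0752 within 500 bp, and -0.548 to -0.265 without each animal. The cause was not tested. The Tg minus Wt mean over member rows ran from -0.0934 to 0.153 points without each animal, changing sign without the library labelled Wt male. The member body median was 4.29% with rows in all 12 libraries and 9.42% beyond 2000 bp, alternatives chosen after seeing the data, and 5.77% to 5.78% without Wt female 1 or the Wt male. The 8 named rows were chosen because their Wt and Tg ranges did not overlap, so leaving out libraries could not reverse their direction. Summing the strands of a CpG could have, and all 8 kept their direction there. In the 139 comparisons where a named row could be tested, it met the threshold in 126 and fell below it in 13. No paired analysis was possible because the replicate numbers follow the record order and pair no animals. Single rows rest on few reads and few animals, so a row that was not called is not shown to be alike in both genotypes.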
